A study of Mus musculus with 4 samples.

Results

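The colony-stimulating factor receptors and ligands comprised 6 of the 28692 genes in the gene table, taken by symbol: the receptor genes Csf1r, Csf2ra, Csf2rb and Csf3r and the ligand genes Csf1 and Il34. No measured value was used to choose them. They were followed in 4 single-cell RNA sequencing libraries of sorted myeloid cells, most of them microglia, from mouse cortex and hippocampus, and 5 of the 6 genes had at least 1 count in these cells. Csf1r was counted in nearly every cell at an almost equal level in the 4 mice, Csf3r, Csf2ra and Csf2rb were counted in smaller shares of cells, Csf1 was rare, and Il34 was not detected.

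Colony-stimulating factors control the survival, growth and differentiation of myeloid cells. CSF1R is a receptor tyrosine kinase on which microglia depend for survival, and it binds CSF1 and IL-34, a ligand that neurons are known to make in the brain. The receptor for CSF2 (GM-CSF) pairs a specific alpha chain, CSF2RA, with the beta chain CSF2RB, which it shares with the receptors for interleukin-3 and interleukin-5. CSF3R is the receptor for CSF3 (G-CSF) and is best known from neutrophils.

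All 4 libraries formed 1 group (n = 4), each from 1 male C57BL/6J mouse at postnatal day 90. Every animal had received PBS (phosphate-buffered saline) by the tail vein, 24 hours before sacrifice by the labels, although the methods of the study give a different interval. Tissue was dissociated by Cold Dounce homogenisation, which is mechanical and uses no enzymes, and live cells positive for CD45 and CD11b were sorted. With 1 group there was no treatment to compare, so the comparisons were between the 4 mice and, within each mouse, between groups of cells.

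After quality control 13002 cells remained, with 2576 to 3692 in a library and 5841671 to 11267195 UMIs (unique molecular identifiers, each 1 counted RNA molecule) in a library. The sort was checked against marker genes. The 9 microglial markers summed to 37968.9 to 39123 CPM (counts per 1000000 UMIs) in the 4 libraries, those of border macrophages to 12.6 to 84.8 CPM and those of monocytes to 10.5 to 50.6 CPM, and all 5 neutrophil markers (S100a8, S100a9, Ly6g, Retnlg and Mmp9) were at 0 UMIs. The highest sums among the other lists of cell types were those of B cells and astrocytes. B cell markers summed to 339 to 373 CPM, with 86.7% of their UMIs from Ighm. Astrocyte markers summed to 219 to 274 CPM, with 99.8% from Slc1a3. Replicate 4 stood apart in 1 respect that touches a result given further on. Cells rich in immediate early gene transcripts made up 14.7% of its cells and 1.17%, 2.07% and 2.13% of those of replicates 1 to 3. The methods of the study describe 1 animal whose cells were sorted a second time. Its supplementary notes report that cells with the study's signature of ex vivo activation came almost only from that animal. Fos and Jun are among the genes of this signature. The notes call the animal the final one and the fourth sample. The titles of these libraries carry other numbers and none of them is that one, so the animal was not tied to a library here by its label. Its part in the values of replicate 4 was not tested. Pairs of libraries shared 6 to 21 cell barcodes.

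Csf1r (ENSMUSG00000024621, GRCm38 chromosome 18, 61100598 to 61132149, plus strand) was measured at 4044, 4037, 4072 and 4232 CPM in replicates 1 to 4, a mean of 4096 ± 91.8 CPM (SD, n = 4). Its 135902 UMIs were 0.410% of all UMIs, which made it the gene with the 16th highest mean of the table. The 3 lower libraries lay close together and replicate 4 lay above them. Dixon's range test (two-sided, 95%), which divides the gap between the most extreme library and its neighbour by the range of all 4, gave a ratio of 0.815 and did not set replicate 4 apart. The SD of its log2(CPM + 1) values over the mice was 0.03, against a median of 0.11 for the 7656 genes with a mean of at least 10 CPM, and 3.07% of those genes had a smaller one. The gene Hmgxb3 overlaps Csf1r on the other strand and had a mean of 4.89 CPM.

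Among the other receptor genes, Csf3r (ENSMUSG00000028859, chromosome 4, 126024550 to 126044440, plus strand) was at 212, 198, 201 and 220.3 CPM, a mean of 208 ± 10.3 CPM. Csf2ra (ENSMUSG00000059326, chromosome 19, 61223957 to 61228429, minus strand) was at 101, 80.6, 82.5 and 88.9 CPM, a mean of 88.2 ± 9.17 CPM. Csf2rb (ENSMUSG00000071713, chromosome 15, 78325752 to 78353847, plus strand) was at 41.5, 38.6, 44.3 and 40.2 CPM, a mean of 41.2 ± 2.42 CPM. No library was set apart by Dixon's test in any of these genes, so 0 of the 4 members with a mean of at least 10 CPM had a library apart, and 354 of all 7656 such genes did (4.62%). Csf2ra varied more between the mice than the others, with 69.7% of genes at a smaller SD. Counts of 3′ ends carry no term for transcript length, and the order of the 4 receptor genes was the same in every library, Csf1r first and Csf2rb last. The near copy of Csf2rb, Csf2rb2, encodes a beta chain specific to interleukin-3 in the mouse and had a mean of 11.3 ± 2.05 CPM. The last 500 bases of the 2 transcripts, where these counts arise, share 0% of their 50-base stretches, while 18.4% of those of the whole Csf2rb transcript are shared.

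The ligand gene Csf1 (ENSMUSG00000014599, chromosome 3, 107741048 to 107760469, minus strand) had 209 UMIs in all, 47, 65, 38 and 59 in replicates 1 to 4. These counts gave 6.66, 5.77, 6.5 and 6.55 CPM, a mean of 6.37 ± 0.408 CPM. Replicate 2 was set apart as low by Dixon's test, at a ratio of 0.834. Its exact Poisson interval of 4.45 to 7.35 CPM included the values of the other libraries, so the gap was within counting error. Il34 (ENSMUSG00000031750, chromosome 8, 110741829 to 110805924, minus strand) was at 0 UMIs in all 4 libraries, so that its level could be as high as 0.514 CPM in the shallowest library (3 counts) and 0.0905 CPM over the 4 together. The ligand genes of the other receptors, Csf2 and Csf3, were also at 0 UMIs, with and without the filter on cells. Il34, Csf2 and Csf3 were thus not detectable at this depth.

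**Figure D1:**
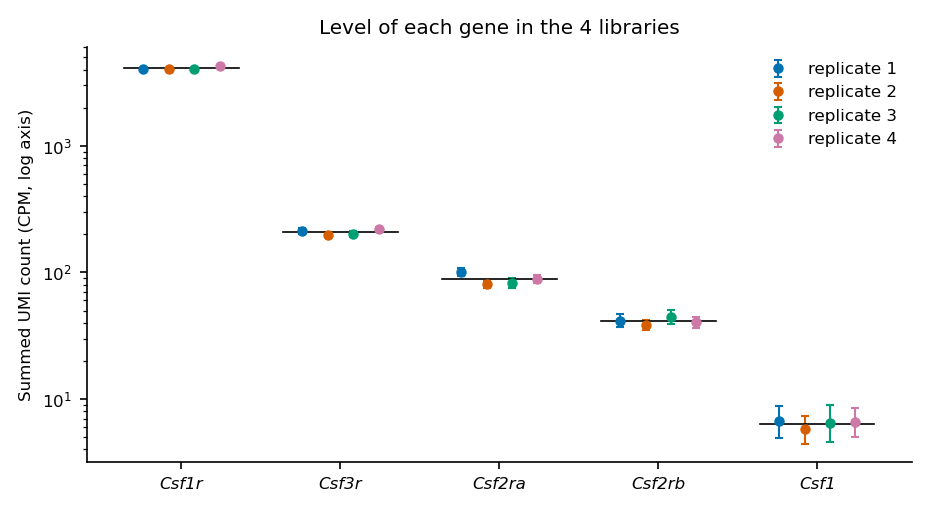
Level of 5 genes in each library, in CPM from summed UMIs on a log axis. Each point is 1 library with its exact 95% Poisson interval and each line the mean of the 4 libraries. The 4 libraries of Csf1r lie between 4037 and 4232 CPM and those of Csf1 between 5.77 and 6.66 CPM with overlapping intervals, and Il34 is not drawn because it had 0 UMIs.

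Shares of cells with a UMI were compared after every cell had been thinned at random to 1000 UMIs, since median depth differed between the libraries from 1905 to 2936 UMIs per cell. This left out 265 cells with fewer UMIs (81, 23, 85 and 76 in replicates 1 to 4) and kept 12737. Csf1r was found in 98.0%, 98.0%, 97.6% and 98.1% of cells at 4.07 to 4.28 UMIs per cell. Cells without a Csf1r UMI made up 1.97%, 2.02%, 2.45% and 1.95%, and a Poisson count with the same mean would leave 1.69%, 1.71%, 1.65% and 1.38% without one. The variance of the Csf1r count was 1.06 to 1.19 times its mean, so that cells of 1 library differed in their counts by little more than counting error. Without thinning, 99.7% of cells had a Csf1r UMI.

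The other receptors were found in smaller shares that varied little between the mice. Csf3r had a UMI in 18.8%, 18.4%, 17.7% and 19.6% of thinned cells, Csf2ra in 9.33%, 7.09%, 7.43% and 8.70%, and Csf2rb in 4.12%, 3.60%, 4.34% and 4.12%. Without thinning these rose to means of 39.3%, 19.0% and 9.65%, and at such counts a cell without a UMI is not a cell that lacks the transcript. Csf1 was found in 0.343%, 0.572%, 0.442% and 0.649% of thinned cells and in 1.47% without thinning. Il34 was found in 0 of 12737 cells, and 0 counts allow a share of up to 0.0818% to 0.120% in a library. No cluster of a cell type that should lack these genes was present, so the share that RNA free in the suspension can give was not measured. Intervals and limits of this kind cover counting error only.

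Ligand and receptor were then sought in the same cells. All 191 cells with a Csf1 UMI had a Csf1r UMI without thinning, as did 12776 of the 12811 other cells (99.7%). Of these 191 cells, 13 had 2 or more Csf1 UMIs and the highest count was 4. In thinned cells 63 of 64 cells with Csf1 also had Csf1r (98.4%, exact Clopper-Pearson interval 91.6% to 99.96%), where the product of the 2 shares gives 62.7 cells, and 97.9% of the other cells had it. With Csf1r in nearly all cells, the count could hardly have been otherwise. The summed Csf1r level of the cells with a Csf1 UMI was 3740, 4031, 3542 and 4220 CPM in replicates 1 to 4. That of the other cells was 4048, 4037, 4081 and 4232 CPM. The level was lower in cells with Csf1 in 4 of 4 libraries, but nearly equal in replicates 2 and 4. No test was made because the cells with Csf1 were few.

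The alpha and beta chains of the CSF2 receptor were rarely found together. In thinned cells 28 of 1039 cells with Csf2ra had a Csf2rb UMI (2.69%, interval 1.80% to 3.87%), against 4.13% of the others (3.78% to 4.51%). The product of the shares gives 41.9 cells, and the share was lower in cells with Csf2ra in 3 of 4 libraries. Replicate 1 held 15 of the 28 cells. The difference did not persist with depth. At 2000 UMIs per cell 99 cells had both where 112.5 were expected, and without thinning 245 cells where 243.6 were expected. Csf2rb and Csf3r were found together in 91 thinned cells (95.3 expected), in 280 at 2000 UMIs (241.6 expected) and in 562 without thinning (503.9 expected). At 2000 UMIs 39.1% of cells with Csf2rb had Csf3r (interval 35.5% to 42.8%) and 33.3% of the others (32.3% to 34.3%), and the share was higher in 4 of 4 libraries. An exact sign-flip permutation test over 4 libraries cannot reach an adjusted p threshold of 0.05, so no test was made of these shares.

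Levels were next summed over clusters of cells, which were made without the 6 genes and without the other pathway genes described further on. Of the 8 clusters, 6 were microglia-like, cluster 3 of them also interferon-responsive, and clusters 6 and 7 were left unnamed. The leading genes of cluster 6 held both border macrophage and monocyte markers. Those of cluster 7 held 1 monocyte marker, Plac8, and 1 interferon-induced gene, Ifitm3, too few for a name. Because clusters were made from these same cells, their levels are given with no test. Such sums alone do not tell fewer molecules in each cell from fewer cells with the transcript. Without thinning, a Csf1r UMI was found in 99.5% of the cells of cluster 4, 100% of those of cluster 5 and 95.2% of those of cluster 6.

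Csf1r lay between 3903 and 4216 CPM in clusters 0 to 3, the 4 largest. Cluster 4 (188 cells) had 6808 CPM, with 6100.4, 6228, 7254 and 7448 CPM in the 4 libraries against 4027 to 4211 CPM in the other cells. It was higher in 4 of 4 libraries. These cells were shallow, with a median of 1062 UMIs, their ribosomal protein genes took a median of 1.80% of UMIs against 7.93% elsewhere, and their leading genes included Erlec1, Ccdc47 and Alg5 of the endoplasmic reticulum. The part of these differences in the level of Csf1r was not tested. Csf1r was lowest in the unnamed clusters. Cluster 6 (83 cells, led by the MHC class II genes H2-Aa and Cd74 and the border macrophage genes Pf4 and Mrc1) had 925, 3465, 2582 and 2083 CPM, and cluster 7 (25 cells, led by Pglyrp1, Plac8 and Ear2) had 1329, 1386, 1087 and 1260.4 CPM. Both were below the other cells in 4 of 4 libraries.

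In the unnamed clusters Csf2ra was high. It was at 167 CPM in cluster 6, with 317, 134, 109 and 185 CPM in the 4 libraries against 80.02 to 99.6 CPM in the other cells, and at 188 CPM in cluster 7. Both clusters were above the other cells in 4 of 4 libraries. In cluster 4 Csf2ra was at 103 CPM, above the other cells in 2 of 4 libraries. Csf3r was low where Csf1r was, at 122, 167, 87.5 and 75.2 CPM in cluster 6 and 47.0 CPM in cluster 7 (3 UMIs, interval 9.68 to 137 CPM), below the other cells in 4 of 4 libraries. Csf2rb was at 58.8 CPM in cluster 6 and 110 CPM in cluster 7 (7 UMIs, interval 44.1 to 226 CPM). With finer clusters (resolution 1) the closest match of cluster 6 held 56 monocyte-like cells, and a separate cluster held 28 border macrophage-like cells, none of them from replicate 1. The monocyte-like cells had 1477 CPM of Csf1r, 232.5 of Csf2ra and 59.3 of Csf3r. The border macrophage-like cells had 3529 CPM of Csf1r, 99.6 of Csf2ra and 156.5 of Csf3r over all libraries, which lay between the monocyte-like cells and the cells outside the border macrophage-like cluster in each gene. This order did not hold in every library, since Csf2ra was at 75.2 CPM in the border macrophage-like cells of replicate 3 and 82.6 CPM in the others. Csf2rb did not follow it, at 36.5 CPM in the monocyte-like and 80.6 CPM in the border macrophage-like cells.

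**Figure D2:**
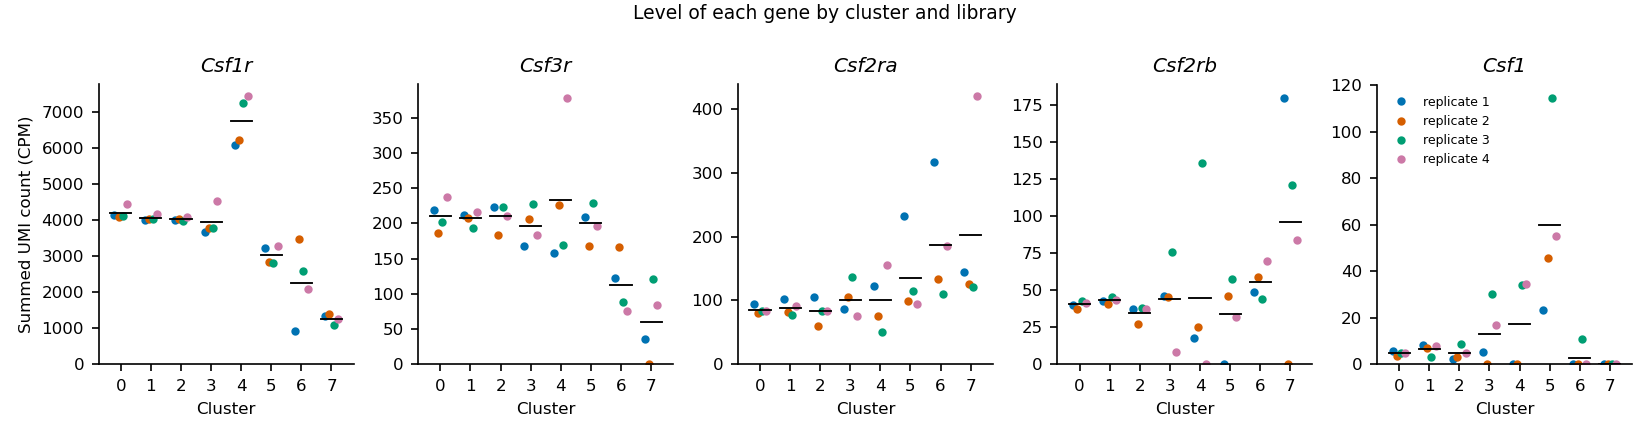
Level of 5 genes by cluster, in CPM from summed UMIs. Each point is 1 library, each line is the mean of the 4 libraries, and each panel has its own vertical axis that starts at 0. Csf1r is highest in cluster 4 and lowest in cluster 7, Csf2ra is highest in clusters 6 and 7, and Csf1 is highest in cluster 5.

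The ligand gene Csf1 was concentrated in cluster 5, 87 microglia-like cells led by Ccl4, Lpl, Lgals3, Ccl3 and Cst7. It was at 23.3, 45.7, 115 and 55 CPM there, against 5.30 to 6.56 CPM in the other cells of the same libraries. These levels came from 1, 6, 6 and 7 UMIs. The groups did not overlap, although the lowest value, that of replicate 1, was a single UMI. How many of all genes had no overlap between this cluster and the other cells was not counted. The pooled level was 9.81 times that of the other cells. This cluster held 0.669% of the cells and 20 of the 209 Csf1 UMIs (9.57%). A Csf1 UMI was found in 12 of its 87 cells, or 13.8% (interval 7.34% to 22.9%), and in 1.04% and 1.80% of the cells of the 2 largest clusters. Its cells were also deeper, with a median of 3955 UMIs against 2176 and 2723, which raises a share of cells but not a level in CPM. Csf1r was lower in cluster 5, at 3216, 2841, 2808 and 3284 CPM, below the other cells in 4 of 4 libraries. The pooled receptor level of this cluster was 0.740 times that of the other cells.

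**Figure D3:**
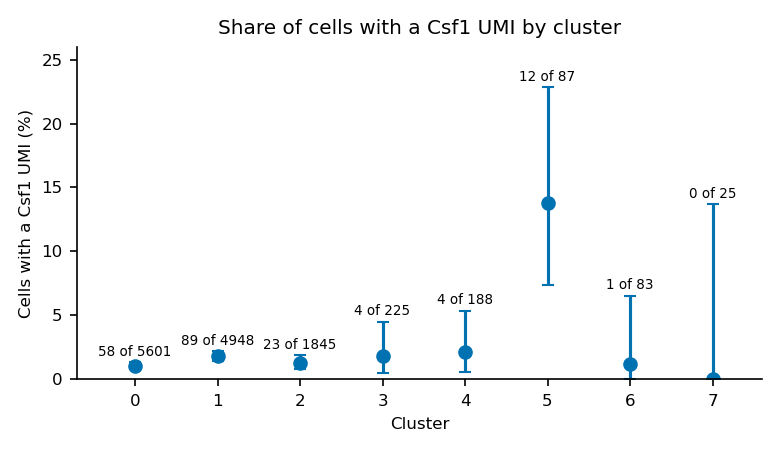
Share of cells with at least 1 Csf1 UMI in each cluster, in percent, over all 4 libraries without thinning. Bars are exact 95% Clopper-Pearson intervals for counting error, and the numbers above them are cells with a UMI of all cells. The interval of cluster 5 (12 of 87 cells) does not reach those of clusters 0, 1 and 2.

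Cells were also grouped by lists of genes that include none of the 6, at 1000 UMIs per cell. In the 27 cells with at least 3 UMIs of the chemokine genes Ccl3 and Ccl4, Csf1 had 12 UMIs and a level of 142 CPM (interval 73.3 to 247.8), against 5.81 CPM in the other cells. These cells numbered 3, 4, 9 and 11 in the 4 libraries, and their Csf1 levels were 0, 235.9, 232.8 and 60.8 CPM. Csf1r was at 3724 CPM in them, 0.909 times the level of the other cells, and lower in 4 of 4 libraries. The 58 cells with at least 5 UMIs of MHC class II genes had Csf1r at 1241, 2453, 1276 and 1675 CPM, Csf2ra at 290.5, 216, 146 and 222 CPM, and Csf3r at 49.1 CPM over all libraries, with Csf1 at 0 UMIs. Csf1r was lower and Csf2ra higher than in the other cells in 4 of 4 libraries. In the 21 cells with at least 3 UMIs of Lpl, Cst7, Lgals3 and related genes Csf1r was at 1688 CPM, and in the 32 cells with border macrophage markers it was at 3057 CPM. Of these groups 7 of 58, 15 of 21 and 1 of 32 cells lay in microglia-like clusters, and the part of other cell types in their receptor levels was not tested. Only 3 cells were proliferating. These groups had under 10 cells in at least 1 library and are described with no test.

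The 2 larger groups were tested against the other cells of the same library with edgeR's quasi-likelihood test on summed counts, paired by library, with Benjamini-Hochberg adjustment over all genes tested. Cells rich in immediate early genes, whose transcripts appear within minutes of stimulation, numbered 624 (41, 76, 53 and 454). With the 8 genes that define them left out, 33 of 9868 genes were called (0.334%) at an adjusted p under 0.05, 20 without replicate 1 and 45 without replicate 4, and 0 of the 5 members tested. Csf1r was at 3377, 4019, 4196 and 4189 CPM in these cells and at 4048, 4037, 4067 and 4231 CPM in the others, a log2 fold change of -0.12 ± 0.08 (SE). Csf1 had 1, 4, 6 and 8 UMIs in these cells, or 11.6, 18.5, 53.1 and 5.95 CPM against 5.13 to 6.52 CPM, and its log2 fold change of 1.18 ± 0.51 was not called (adjusted p = 1.0). At an unadjusted p under 0.05 1 member, Csf1, passed, beside 333 of all 9868 genes tested, and DESeq2 also called 0 members. Of the wider pathway genes, described below with their roles, 1 of 43 tested was called, Cebpb at 0.46 ± 0.10 (adjusted p = 0.00141), which was higher in 3 of 4 libraries and was not called among microglia-like cells alone. The monocyte markers summed to 18.5 to 1044 CPM in these cells and 10.3 to 54.4 CPM in the others, with 1 of 3 tested called higher, and their part in these values was not tested.

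Interferon-responsive cells, with at least 3 UMIs of 7 interferon-induced genes, numbered 86 (36, 18, 16 and 16). Of 9573 genes 757 were called (7.91%), 4.14% higher and 3.77% lower, and of the 5 members tested 3 were called. The direction of the calls differed between the tools, as DESeq2 called 507 genes higher and 23 lower. Csf1r was at 2435, 3613, 1876 and 1629 CPM in these cells and at 4059, 4039, 4088 and 4244 CPM in the others, and it fell by 0.95 ± 0.27 on the log2 scale (SE, adjusted p = 0.00788). The highest of these 4 values lay below the lowest of the others.

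Csf3r was at 122, 123, 82.5 and 74.7 CPM against 214, 198.5, 201.5 and 221 CPM, and fell by 1.14 ± 0.31 (adjusted p = 0.00450). Csf2ra was at 158, 123, 165 and 254 CPM against 99.9, 80.3, 82.0 and 87.8 CPM, and rose by 0.90 ± 0.29 (adjusted p = 0.0246). In both genes, as in Csf1r, the 2 sets of 4 values did not overlap. How many of all genes tested had no overlap was not counted, so this adds nothing to the calls. Csf2rb, with a log2 fold change of 0.33 ± 0.45, and Csf1, with 2 UMIs in these cells, were not called. The calls depended on single libraries. The adjusted p of Csf1r was 0.146, 0.261 and 0.0595 without replicates 1, 3 and 4, that of Csf2ra was 0.0612, 0.0844 and 0.408, that of Csf3r was 0.0509 without replicate 4, and the number of genes called was 499, 439 and 402 without replicates 1, 3 and 4. DESeq2 called 0 of the members, with adjusted p of 0.162, 0.120 and 0.229 for Csf1r, Csf2ra and Csf3r.

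Of the 86 interferon-responsive cells, 53 were in microglia-like clusters. The monocyte markers moved with the state: they summed to 299.6 to 4170 CPM in these cells and 9.02 to 19.7 CPM in the others, and all 3 of those tested were called higher. The border macrophage markers summed to 0 to 1419.8 CPM against 12 to 74.4 CPM, and 3 of 4 tested were called higher. All 9 microglial markers were called lower, at 7801 to 28429.9 CPM in sum against 38029 to 39299 CPM. The part of these cells in the differences of the receptors was not tested over all clusters. The comparison was therefore repeated within microglia-like clusters at a minimum of 2 UMIs, a setting chosen after the values had been seen, where the monocyte and border macrophage lists had at most 1 tested member and none called, and 4 of 9 microglial markers were still called lower. With 102 such cells, 165 of 9472 genes (1.74%) and 0 members were called. Csf1r was at 3487, 4049, 3329 and 4230.1 CPM against 4077, 4047, 4103 and 4271 CPM, -0.30 ± 0.09 on the log2 scale (adjusted p = 0.0701). Csf3r was at -0.14 ± 0.21 (adjusted p = 0.947) and Csf2ra at 0.34 ± 0.28 (adjusted p = 0.770).

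Ifitm3, which monocytes also express, was then left out of the list, again after the values had been seen. In the 65 cells that remained, 217 of 9408 genes (2.31%) were called, and of the members Csf1r was, at 3599, 4077, 3285 and 4089 CPM against 4047 to 4272 CPM, a fall of 0.42 ± 0.09 (adjusted p = 0.000370). It was lower in 3 of 4 libraries, and the 2 sets of values overlapped. Csf3r (-0.10 ± 0.24) and Csf2ra (0.41 ± 0.34) were not called there, although Csf2ra was higher in 4 of 4 libraries in both settings. The log2 fold changes were taken after edgeR's scaling of the sums (TMM), which the CPM do not carry, and here they differ. Mean Csf1r was 3762 CPM in these cells against 4124 CPM in the others. Mean Csf3r was 233.5 CPM against 209.6 CPM, higher in 3 of 4 libraries, although its log2 fold change was negative. The median log2 fold change of all genes tested was -0.36 over all cells, -0.24 in microglia-like clusters and -0.36 there without Ifitm3, where 8 of 9 microglial markers were called lower as well. The fall of Csf1r was thus larger than that median over all cells and close to it within microglia-like clusters. Cluster 3 held 225 interferon-responsive microglia-like cells. Over all libraries Csf2ra was at 96.3 CPM there against 87.3 CPM in the other cells, higher in 2 of 4 libraries. Csf3r was at 191 CPM there against 208 CPM, lower in 2 of 4. Csf1r was at 3903 CPM against 4101 CPM, lower in 3 of 4.

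**Figure D4:**
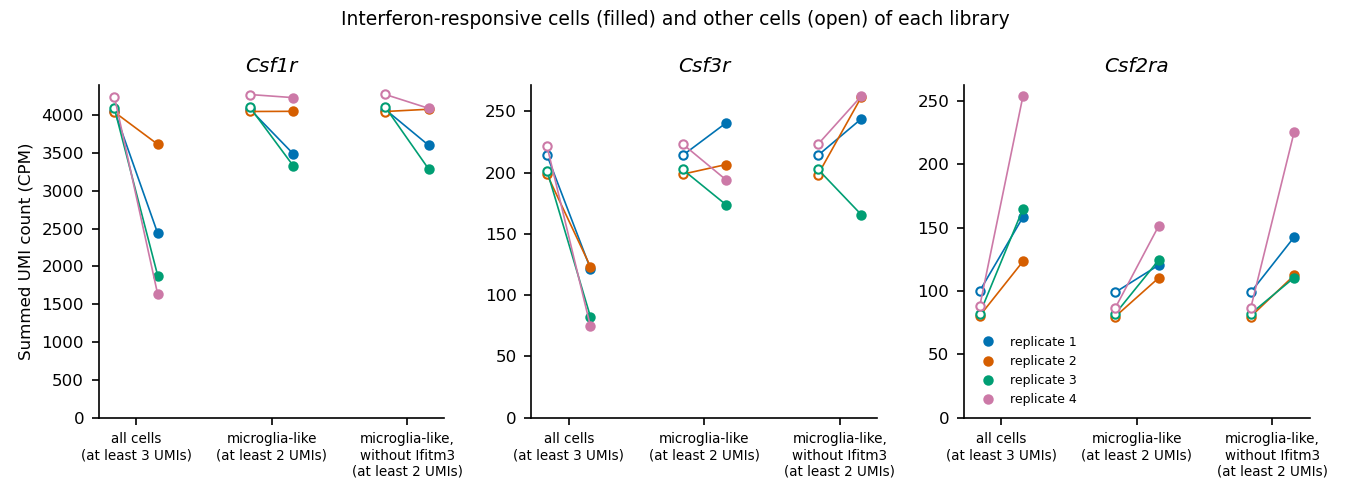
Levels of Csf1r, Csf3r and Csf2ra in interferon-responsive cells (filled points) and in the other cells of the same library (open points), in CPM, for 3 ways of choosing the cells. Lines join the 2 sums of 1 library, and each panel has its own vertical axis that starts at 0. Over all cells every library falls in Csf1r and Csf3r and rises in Csf2ra, whereas among microglia-like cells the Csf3r lines run both ways and the Csf1r lines are shorter.

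The wider pathway was read from a list of 54 genes in 6 roles, of which 35 had a mean of at least 10 CPM and 3 of these (8.57%) had a library apart. Tyrobp, the adaptor protein of microglial immune receptors, was at 3501 ± 104.5 CPM and the Src family kinase Lyn at 486 ± 1.93 CPM. Among the transcription factors of the Csf1r gene, Irf8 was at 762 CPM, Spi1 (PU.1) at 583 CPM, Cebpa at 315 CPM and Cebpb at 290.0 CPM. Runx1, of the same group, was at 85.0, 84.8, 84.9 and 108 CPM, and replicate 4 was set apart (ratio 0.987). Adam10 and Adam17, proteases that shed cell surface receptors, were at 104 and 76.5 CPM. Of the 6 other ligand genes, Csf2, Csf3, Il3 and Il5 were at 0 UMIs, and Kitl and Flt3l were at 11 and 4.07 CPM. Of the IL-34 binding proteins, Sdc1 had 0 UMIs and Ptprz1 had 1.

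In interferon-responsive cells 42 pathway genes were tested, of which 3 were called higher and 3 lower, and their median log2 fold change was -0.16 beside -0.36 for all genes. Fgr, a Src family kinase of myeloid cells, rose by 5.53 ± 0.55 (adjusted p = 7.40e-22), Cebpb by 1.48 ± 0.23 (adjusted p = 6.95e-09), and Socs1, an inhibitor of JAK signalling that interferon induces, by 2.50 ± 0.77 (adjusted p = 0.0193). Adam10 fell by 1.36 ± 0.42 (adjusted p = 0.0173). Within microglia-like clusters Socs1 alone of these 4 was called again (Fgr was too low to be tested), at 3.04 ± 0.66 (adjusted p = 0.000439). It was at 21.9, 68.9, 99.4 and 43.2 CPM there and at 4.44 to 8.27 CPM in the other cells, higher in 4 of 4 libraries. Without Ifitm3 in the list it was called as well (3.12 ± 0.74), together with a lower Cebpa (-0.76 ± 0.23, adjusted p = 0.0398).

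Cells with and without a UMI of 1 receptor were then compared for all other genes, by the same test. Cells were grouped at 1000 UMIs but all of their UMIs were summed, so the cells without a UMI still held the transcript. In these sums Csf1r was at 1495 to 2442 CPM in cells without its UMI and 4071 to 4271 CPM in those with it. Csf2ra was at 46.6 to 56.1 CPM against 418 to 598, Csf2rb at 20.5 to 25.9 against 373 to 539, and Csf3r at 105 to 142 against 506 to 682. The 264 cells without a Csf1r UMI at 1000 UMIs (69, 74, 61 and 60) were set against the 12473 with one. Of 9750 genes 207 were called (2.12%), 27 higher and 180 lower in cells with Csf1r, and 0 of the other members. None of them had an unadjusted p under 0.05, and DESeq2 also called 0. DESeq2 called 173 genes, all of them lower, so that no gene named higher here was called by it, and without the pairing by library 7 genes were called higher and 100 lower. The genes named higher were Ecscr (0.55 ± 0.12), P2ry12 (0.41 ± 0.09), Fcrls (0.42 ± 0.10), Fscn1 (0.49 ± 0.12) and Sparc (0.41 ± 0.10), of which P2ry12, Fcrls and Sparc are microglial markers, each higher in 4 of 4 libraries. P2ry12 was at 5174 to 5696 CPM in cells with Csf1r and 3888 to 4487 CPM in those without.

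The genes named lower were the class II genes H2-Aa (-4.34 ± 0.13), H2-Eb1 (-4.32 ± 0.13), Cd74 (-4.14 ± 0.13) and H2-Ab1 (-3.97 ± 0.13), each lower in 3 of 4 libraries, and Ifitm3 (-3.67 ± 0.12), lower in 4 of 4. Replicate 2 lacked the class II difference, with Cd74 at 51.8 CPM in cells without Csf1r where the others had 3394 to 10831 CPM. The monocyte markers summed to 47.5 to 1115 CPM in the cells without Csf1r and 9.71 to 27.9 CPM in those with it, and all 3 tested were called. The border macrophage markers summed to 0 to 580.4 CPM and 12.8 to 77.3 CPM, with all 4 tested called. The part of both in the other differences was not tested over all clusters. The count of genes called was 132, 378, 106 and 95 without replicates 1 to 4, and 107 without the pairing by library. Within microglia-like clusters, where 234 of the 264 cells lay and where a minimum of 45 cells was set after the numbers of cells were known, 5 of 9632 genes were called (0.0519%): Fcrls (0.26 ± 0.06), P2ry12 (0.23 ± 0.05) and Sparc (0.23 ± 0.05) higher in 4 of 4 libraries, and Lgals3 (-4.46 ± 0.39) and Lpl (-2.51 ± 0.40) lower in 3 of 4. In replicates 1 to 4 the cells without Csf1r held 0, 32, 1 and 17 Lgals3 UMIs there, and 2, 26, 1 and 3 Lpl UMIs. Both genes were thus counted mainly in replicate 2, and Lgals3 also in replicate 4. The class II genes were not called within microglia-like clusters. Of the pathway genes Fgr (-2.50 ± 0.63) and Cebpb (-0.46 ± 0.12) were called lower over all cells, and 0 of the pathway genes within microglia-like clusters.

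Cells with a Csf2ra UMI (1039 cells, 326, 260, 185 and 268) differed from the others in 23 of 9744 genes (0.236%), 22 of them higher. Csf2ra-positive cells had more of the chemokine gene Ccl12, at 234, 323, 138 and 179.8 CPM against 125, 105, 110 and 121 CPM (0.98 ± 0.11, adjusted p = 7.01e-07), and more of the interferon-induced gene Ifit3, at 27.7, 37.7, 49.3 and 24.4 CPM against 15.8, 11.9, 8.39 and 7.6 CPM (1.61 ± 0.22, adjusted p = 3.25e-05). In both genes the 2 sets of 4 libraries did not overlap, but how many of all genes tested had no overlap was not counted. Apoe (1.0 ± 0.12), H2-Eb1 (1.52 ± 0.21) and Cd74 (1.35 ± 0.20) were higher in 3 of 4 libraries, replicate 3 being the exception. Of the border macrophage markers 1 of 4 tested was called higher, and they summed to 17.2 to 159 CPM against 9.15 to 77.3 CPM, while the monocyte markers summed to 2.46 to 196 CPM against 9.57 to 49.4 CPM with 0 of 2 called. Cst3, the most abundant of the genes named, was lower by 0.07 ± 0.01. No other member was called. Csf2rb was at 37.0, 41.5, 37.0 and 32.1 CPM in these cells against 42.3, 38.2, 43.8 and 41.1 CPM in the others (-0.15 ± 0.14, adjusted p = 1.0), and 0 members had an unadjusted p under 0.05.

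Within microglia-like clusters 11 of 9684 genes were called (0.114%). The genes named higher were Ccl12 (1.03 ± 0.10), Ifit3 (1.66 ± 0.21), Usp18 (1.83 ± 0.30) and Ifitm3 (1.0 ± 0.16) in 4 of 4 libraries and Apoe (0.61 ± 0.11) in 3 of 4. Ifit3, Usp18 and Ifitm3 are known interferon-induced genes. The count over all cells was 10 without replicate 1, 8 with DESeq2, and 0 without the pairing by library, where 347 genes had an unadjusted p under 0.05.

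The promoters of these genes were searched for the core of the interferon-stimulated response element, a pair of GAAA separated by 2 bases of any kind, on either strand, in the RefSeq windows of 250 bases before to 50 bases after the start of a gene (GRCm38.p6). It was found in 1079 of 27025 genes with a window (3.993%). Of the 7 genes named as higher in Csf2ra-positive cells, 5 had a window, and those of Ifit3 and Ifitm3 held it, at 2 places each. The 4 sites are shown because they mark which of the genes higher with Csf2ra hold these letters. Each is written 5′ to 3′ in the direction of its gene, with the motif or its reverse complement in capitals.
Ifit3, chr19:34583365-34583390, 156 bases before the start: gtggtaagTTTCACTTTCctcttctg
Ifit3, chr19:34583399-34583424, 122 bases before the start: taagtctgTTTCAGTTTCtactttcc
Ifitm3, chr7:141010725-141010750, 3 bases after the start: aaattcagGAAAAGGAAActtctgag
Ifitm3, chr7:141010708-141010733, 20 bases after the start: acttctgaGAAACCGAAActgccgca
Ifit3 lies on the plus strand of the chromosome and Ifitm3 on the minus strand. The bases that follow the RefSeq start of Ifit3 were found in none of its GENCODE transcripts, unlike those of the other windows, so its distances hold for the RefSeq start only. Among the 6 receptor and ligand genes, Csf2ra, Csf3r and Csf1 had a window and none of these held the motif, which says only that these letters are not in that window.

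Cells with a Csf2rb UMI (511 cells) differed from the others in 1 of 9737 genes (0.0103%), Lgals3, which encodes galectin-3. It was at 17.4, 78.1, 7.99 and 57.0 CPM against 12.7, 4.89, 11.1 and 16.3 CPM (2.06 ± 0.33, adjusted p = 0.000114), higher in 3 of 4 libraries. The count was 5, 0, 3 and 2 without replicates 1 to 4, 0 without the pairing by library and 0 with DESeq2, where 121 genes had an unadjusted p under 0.05. Within microglia-like clusters 3 genes were called (0.0309%), Lgals3 (3.56 ± 0.34), Apoe (0.70 ± 0.07) and Lpl (1.78 ± 0.33), higher in 3, 3 and 2 of 4 libraries. In replicates 1 to 4 the cells with Csf2rb held 0, 32, 2 and 19 Lgals3 UMIs there, and 1, 30, 2 and 5 Lpl UMIs. Most Lpl UMIs thus came from replicate 2, and nearly all Lgals3 UMIs from replicates 2 and 4. No other member was called over all cells. Csf1 had 1, 1, 0 and 0 UMIs in the cells with Csf2rb. It was the one member with an unadjusted p under 0.05 by edgeR, as were 422 of all 9737 genes tested, and it is not read as a difference.

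Cells with a Csf3r UMI (2376 cells) differed from the others in 18 of 9882 genes (0.182%), all of them lower. They were led by the class II genes H2-Aa (-1.44 ± 0.12), Cd74 (-1.41 ± 0.08), H2-Eb1 (-1.27 ± 0.12) and H2-Ab1 (-1.0 ± 0.10) and by Lyz2 (-0.52 ± 0.05), the lysozyme gene of macrophages. Cd74 was at 98.4, 92.9, 37.0 and 238 CPM in cells with Csf3r against 239.8, 123, 258 and 718 CPM, lower in 4 of 4 libraries, whereas H2-Eb1 and H2-Ab1 were lower in 3 of 4. The monocyte markers summed to 8.99 to 11.4 CPM in cells with Csf3r and 10.6 to 60.8 CPM in the others, and their part was not tested over all clusters. Within microglia-like clusters 6 genes were called (0.0610%) and none of these 5 was among them. The genes named there were Cst3, Tmsb4x, C1qa and Itm2b, at -0.01 to -0.03 on the log2 scale, and Lpl at -1.29 ± 0.27. The SEs of the first 4 were 0.0005 to 0.003, less than counting error on their UMIs alone would give. Their calls rest on these small SEs and are not read as differences between the cells. The count over all cells was 10 without replicate 1, 39 without replicate 2, 2 with DESeq2 and 0 without the pairing by library, where 213 genes had an unadjusted p under 0.05. No other member was called, and 0 had an unadjusted p under 0.05. Csf1r was at 3980.1 to 4226 CPM in cells with Csf3r and at 4033 to 4224 CPM in the others (0.01 ± 0.01, adjusted p = 0.992).

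Last, the genes whose level ran most like that of a receptor were found over 23 sums of a cluster in a library with at least 20 cells, among 3098 genes with a mean of at least 50 CPM. The sums share libraries and clusters, so the correlations (Pearson, on log2(CPM + 1)) describe these cells and carry no test. Csf1r ran with Cd53 (r = 0.977), Lgmn (0.964), Laptm5 (0.963), Ctsf (0.958) and P2ry13 (0.956), among them lysosomal genes (Lgmn, Laptm5, Ctsf) and a microglial purine receptor gene (P2ry13). Without cluster 4, in which Csf1r was highest, these 5 values were 0.909 to 0.972 over 19 sums. Csf3r ran with Dhrs7b (0.830), Pdk1 (0.817), Cgrrf1 (0.815), Trpv2 (0.814) and Slc38a2 (0.810). Csf2ra had no comparably close gene, and its highest values were for Sbno1 (0.648, or 0.338 without cluster 4), H2-M3 (0.637), H2-T23 (0.637), Apoe (0.626) and Psmd7 (0.585). Some of its sums held few UMIs, such as 3 in cluster 4 of replicate 2, where Csf1r had 248. Counting error in such sums lowers r, and its part in these values was not tested.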

How the data were processed

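Microglia and other CD45+/CD11b+ cells of 4 mice were measured with 10x Genomics 3′ (version 2) libraries. The authors aligned and counted the reads with Cell Ranger 2.2.0 on the mm10 (GRCm38) reference with Ensembl genes, and the deposited values were raw UMI counts per gene and cell, not normalised and limited to barcodes that Cell Ranger had called as cells. Unique molecular identifiers keep PCR copies out of these counts. Other notes of the submitters name bcl2fastq and Seurat. The replicates were numbered 1 to 4 in accession order, and the numbers only name the libraries. Each library came from 1 mouse.

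Cells needed 400 genes and no more than 10% of UMIs from mitochondrial genes to be kept (13002 of 13138 barcodes). No doublets were removed, and an alternative left out the 1% of cells with the most UMIs. Counts were summed per library and given as CPM. Depth after this filter was 7055985, 11267195, 5841671 and 9000804 UMIs. Intervals were exact Poisson or Clopper-Pearson intervals at 95%, and a count of 0 was read as up to 3 counts. Dixon's range test was run on log2(CPM + 1). Shares were taken from cells thinned to 1000 UMIs (seed 1). Leiden clusters (scanpy 1.11.5, leidenalg 0.10.2) used 2000 variable genes, 20 principal components, 15 neighbours and resolution 0.5, without the 6 genes, the pathway list and the lists of ex vivo activation genes of the study. Coordinates came from GENCODE M21, which held 28339 of the 28692 identifiers.

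Groups of cells were compared by summed counts per library with edgeR 4.0.16 (quasi-likelihood F-test, TMM, filterByExpr) in R 4.3.3, with the library as a block because both sums of a library came from the same mouse, and with Benjamini-Hochberg adjustment over all genes tested. Of the Lpl, Cst7 and Lgals3 list 6 of 7 genes were in the gene table. A state needed 10 cells in every library and a receptor 50 cells on each side. Genes that define a group of cells were left out of its counts of calls. DESeq2 was run as pydeseq2 0.5.4 on genes with at least 10 counts. The test was tried on simulated data. The members named were the 6 genes. Of the pathway list, each comparison of states named the called genes with the 5 smallest adjusted p. One gene of that list is not reported here. Each comparison by receptor named 5 genes in each direction by the same rule, and predicted genes were counted but not named. The genes, lists and tests were chosen with earlier results of these data known.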

Additional observations from a re-analysis of the deposited data

Results flagged for a closer look

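Of 60 sets of 4 library values, 9 had 1 library apart by Dixon's range test. The test sets apart about 1 in 20 sets of independent values with no floor. Some of these sets hold few UMIs, and some share the same counts. Among all genes the share set apart is larger without a filter on low values, as given below. The 9 sets are therefore not read as an excess. In each case the ratio given is the gap of that library to its neighbour over the range of the 4 values. The level of Csf1 was low in replicate 2 (ratio 0.834), with overlapping counting intervals. The share of thinned cells with a Csf1r UMI was low in replicate 3 (0.860), at 97.6% where the others had 98.0% to 98.1%. The difference in that share between cells with and without Csf1 was low in replicate 1 (0.943), at -6.38 percentage points against 1.96 to 2.46, because 1 of its 12 thinned cells with Csf1 had no Csf1r UMI.

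Within clusters, Csf1r was high in replicate 4 in cluster 0 (0.856), at 4454 CPM against 4096 to 4146, and in the interferon-responsive cluster 3 (0.836), at 4539 CPM against 3663 to 3794. Csf2rb was low in replicate 2 in cluster 2 (0.945), at 26.9 CPM against 36.9 to 37.6, and in replicate 1 in cluster 5 (0.856), at 0 UMIs in 13 cells. Csf1 was high in replicate 3 in cluster 6 (1.0), where it had the single UMI of that cluster. Csf2ra was high in replicate 1 in cells rich in immediate early genes (0.878), at 209 CPM against 78.5 to 88.6, from 18 UMIs in 41 cells.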

How the results depend on the processing

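Of 633 values recomputed under alternatives, 550 kept their direction, call or size, and none reversed a called direction. Of 277 alternatives of 23 log2 fold changes of the 6 genes, 30 changed the sign of a value that had not been called. These 30 stayed uncalled and are counted among the 550. The gap of replicate 2 in Csf1 was not set apart with at least 1000 genes per cell (0.507), microglia-like clusters (0.694), TMM (0.628), DESeq2-type size factors (0.679) or totals without mitochondrial genes (0.817), and the last set replicate 4 apart in Csf1r (0.837). Without a filter on low values 2052 of 15581 genes had a library apart. Shares of cells at 2000 UMIs and without thinning were 99.9% and 99.7% for Csf1r, 15.9% and 19.0% for Csf2ra, 8.01% and 9.65% for Csf2rb, 33.7% and 39.3% for Csf3r, and 1.18% and 1.47% for Csf1. Csf3r in the match of cluster 6 at resolution 1 was 65.9 CPM.

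Without the replicate block, that is without pairing the 2 sums of a mouse, genes called went from 33 to 5 in cells rich in immediate early genes, from 207 to 107 for Csf1r, from 23 to 0 for Csf2ra (347 at an unadjusted p under 0.05), from 1 to 0 for Csf2rb (363) and from 18 to 0 for Csf3r (213) by edgeR, while they rose from 757 to 980 in interferon-responsive cells, and no call of a member changed. DESeq2 called 18 genes in cells rich in immediate early genes, 8 for Csf2ra, 0 for Csf2rb (121 unadjusted) and 2 for Csf3r. With microglia-like clusters alone the counts were 16, 11, 3 and 6 in the same order. Without a low-count filter they were 42 for Csf2ra, 8 for Csf2rb and 30 for Csf3r. After the deepest 1% of cells had been left out they were 109 for Csf1r, 13 for Csf2ra, 6 for Csf2rb and 11 for Csf3r. For Csf1r a log2 fold change of at least 0.58 left 123 genes. For Csf2rb another seed gave 6 and 2000 UMIs gave 8. The settings added after the data had been seen gave 5 genes for Csf1r among microglia-like cells, and 165 and 217 genes with 0 and 1 members in interferon-responsive cells, without and with the removal of Ifitm3 from the list. Leaving out 1 library gave 20 to 45, 402 to 800, 95 to 378, 10 to 27, 0 to 5 and 10 to 39 genes for immediate early, interferon-responsive, Csf1r, Csf2ra, Csf2rb and Csf3r cells.

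In interferon-responsive cells DESeq2 gave Csf1r -0.77, Csf2ra 1.06 and Csf3r -0.98 with 0 members called (1407 genes at an unadjusted p under 0.05), microglia-like clusters gave -0.30, 0.34 and -0.14, and without Ifitm3 Csf2ra was 0.41 and Csf3r -0.10. None of these was called. Csf2ra also lost its call without a low-count filter (0.83) and without the deepest 1% of cells (0.80), and Csf3r at 1 UMI lower (-0.40). Leaving out 1 library gave 0 to 3 members called, with Csf1r at -1.16 to -0.81, Csf2ra at 0.61 to 1.02 and Csf3r at -1.27 to -1.02. Apart from the fewer cells that some settings hold, the cause was not tested. Too few cells remained to run 2 UMIs higher for both states, interferon-responsive microglia-like cells at 3 UMIs, and Csf1r at 2000 UMIs or at 50 microglia-like cells. Depth limits Csf1 and Il34 most, at 209 and 0 UMIs.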
